A study of Mus musculus with 2 samples.

Results

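A set of 10 genes of the acute inflammatory response was followed through subcutaneous ovarian tumors of the mouse, namely Il1a, Il1b, Il1rn, Il1r1, Il1r2, Tnf, Il6, Ptgs2, Nlrp3 and Nfkbia. These 10 genes, of 32285 in the count matrices, were listed by name as ligands, receptors, antagonists and feedback genes of IL-1 and TNF signaling. They were chosen with earlier results of these data known. They are described in each cell lineage and between 2 single-cell RNA sequencing libraries, one from WT mice and one from TSK (tight skin) mice. TSK mice carry a heterozygous duplication within Fbn1, the gene of the matrix protein fibrillin-1, in all cells of the body, and serve as a model of systemic sclerosis. All hosts were C57BL/6 females aged 6-8 weeks, and all were injected with SO cells, an ovarian cancer line that lacks p53 and carries Hras and Myc. Within each genotype the tumors of 4 mice were pooled into 1 library, so the genotypes have no replicates and no difference between them was tested. Intervals below are exact 95% intervals that cover counting error only, and differences between the mice, the tumors and the 2 preparations cannot be told apart from genotype.

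IL-1α and IL-1β are cytokines that neutrophils, monocytes and macrophages release early in tissue injury and in tumors, and the NLRP3 inflammasome activates the protease that matures IL-1β. They bind the receptor IL-1R1, found above all on stromal cells, which turns on NF-κB and with it IL6, PTGS2 and the inhibitor NFKBIA that switches NF-κB off again. The antagonist IL-1RN occupies IL-1R1 without signaling and the decoy receptor IL-1R2 binds IL-1β without signaling, so ligand, brake and target genes often sit in different cells.

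The WT library held 2332 barcodes with 21225411 UMIs (counted RNA molecules) and the TSK library 4436 barcodes with 48296765 UMIs, and 263 barcodes occurred in both libraries. Cells were kept with at least 200 genes, at least 500 UMIs, at most 10% mitochondrial UMIs and a barcode found in 1 library only, which left 1442 WT and 2961 TSK cells with medians of 7658.5 and 7302 UMIs. Marker genes named 3648 of the 4403 cells, and 7 lineages had at least 50 cells. They were T and NK cell-like (487 WT and 322 TSK cells), mononuclear phagocyte-like (363 and 477), neutrophil-like (38 and 214), fibroblast-like (155 and 262), endothelial-like (64 and 54), mural-like (23 and 53) and SO cancer-like cells (88 and 988). Their own marker lists were all detected with no marker at 0 in either library, and 96.5% of the named cells fell in a cluster of the same name when the cells were clustered without the 10 genes. Neither value is independent of the naming, since cells were named by these markers and clusters by their most common name. Levels below are UMIs of a gene per 1000000 UMIs of all genes (CPM), summed over the cells of a lineage and library.

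A pair of sequence features is common among such genes, and both are shown because Il6, Nfkbia, Tnf and Ptgs2, on which the comparisons below turn, hold one or the other. The first is the κB site, to which NF-κB binds. Its letters are 3 G, any 2 bases, 2 T, any base and 2 C. Searched on both strands over the 250 bases before each RefSeq start site (GRCm38.p6), they occur in 4.11% of 32851 mouse promoters. They occur in 4 of the 14 promoters of the 10 genes, 1 each of Il6, Nfkbia, Il1rn and Nlrp3. The site begins 44 bases before the start of Il6 and 29 bases before that of Nfkbia, in capitals in the promoters at chr5:30012864-30013113 (plus strand) and chr12:55492648-55492897 (minus strand). The match is a description of the letters, and binding was not measured.
Il6: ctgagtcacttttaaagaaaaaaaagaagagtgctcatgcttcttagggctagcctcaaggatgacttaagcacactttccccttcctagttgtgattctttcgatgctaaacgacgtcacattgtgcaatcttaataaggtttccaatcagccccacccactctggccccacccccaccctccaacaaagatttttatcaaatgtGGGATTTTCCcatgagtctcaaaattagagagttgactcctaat
Nfkbia: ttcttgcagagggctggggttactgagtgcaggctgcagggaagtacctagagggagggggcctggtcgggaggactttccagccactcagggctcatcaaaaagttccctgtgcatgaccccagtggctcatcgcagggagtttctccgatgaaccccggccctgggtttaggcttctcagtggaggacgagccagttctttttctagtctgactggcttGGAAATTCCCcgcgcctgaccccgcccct

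The second is the AU-rich element of the 3′ untranslated region, a run of A and T letters through which short-lived transcripts are degraded. The octamer TTATTTAT, searched on the transcript strand, is found in the 3′ untranslated region of 13.1% of 21677 genes and of 6 of the 10 members, 5 times in Tnf and 4 times in Ptgs2. Below are the stretch of Tnf at chr17:35199678-35199707 (minus strand), the one of Ptgs2 at chr1:150105794-150105823 (plus strand) and the one of Il1b at chr2:129364808-129364837 (minus strand), with the octamers in capitals. Coordinates are of GRCm38.
Tnf: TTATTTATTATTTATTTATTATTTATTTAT
Ptgs2: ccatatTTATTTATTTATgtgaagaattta
Il1b: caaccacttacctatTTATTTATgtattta

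The UMIs of the 10 genes, summed over both libraries, lay in different cells according to their roles. The libraries differ in makeup, with 88 WT and 988 TSK SO cancer cells for example, so the shares within each library differ from these sums. Neutrophil-like and mononuclear phagocyte-like cells held 86.2% of the 8498 UMIs of Il1b (phagocytes 50.7%, neutrophils 35.5%), although neutrophils were 252 of the 4403 cells. Neutrophils held 17.7% of the Il1b UMIs in WT and 49.5% in TSK, and phagocytes 66.8% and 38.1%. The same pair of lineages held 50.4% (neutrophils) and 43.5% (phagocytes) of the Il1a UMIs, and 36.5% and 51.6% of those of Nlrp3, the sensor of the inflammasome. Il1rn, the receptor antagonist, was found beside the ligands, with 58.5% of its UMIs in phagocytes and 27.5% in neutrophils. The signaling receptor Il1r1 was elsewhere, with 58.3% of its UMIs in fibroblasts and 20.4% in SO cancer cells, and Il6 likewise was a gene of the stroma, with 70.8% in fibroblasts and 11.9% in mural cells. The fibroblast share of Il1r1 was 71.2% in WT and 47.3% in TSK, and its SO cancer share 7.88% and 31.0%.

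Ptgs2, which encodes the prostaglandin synthase COX-2, had no main source when the libraries were summed. Its UMIs were divided among phagocytes (28.0%), SO cancer cells (24.6%), fibroblasts (23.8%) and neutrophils (14.5%). Within WT, phagocytes held 45.2% of its UMIs and SO cancer cells 10.4%, and within TSK 18.9% and 32.1%. Tnf, a cytokine that needs no inflammasome, was spread over phagocytes (42.2%), T and NK cells (22.2%) and neutrophils (19.4%). The T and NK share of Tnf was 30.7% in WT and 6.05% in TSK. Il1r2, the decoy, was held by neutrophils (51.2%) and to a lesser extent by T and NK cells (14.4%). These shares were 31.2% and 24.6% in WT and 63.4% and 8.13% in TSK. Nfkbia, the NF-κB inhibitor, was present in all 7 lineages. The largest share of its sum was that of the SO cancer cells (24.9%, with 8.65% in WT and 35.3% in TSK). The cells that received no name held between 4.79% (Il6) and 9.31% (Nfkbia) of the UMIs of each gene, as the plot of the sources shows.

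**Figure D1:**
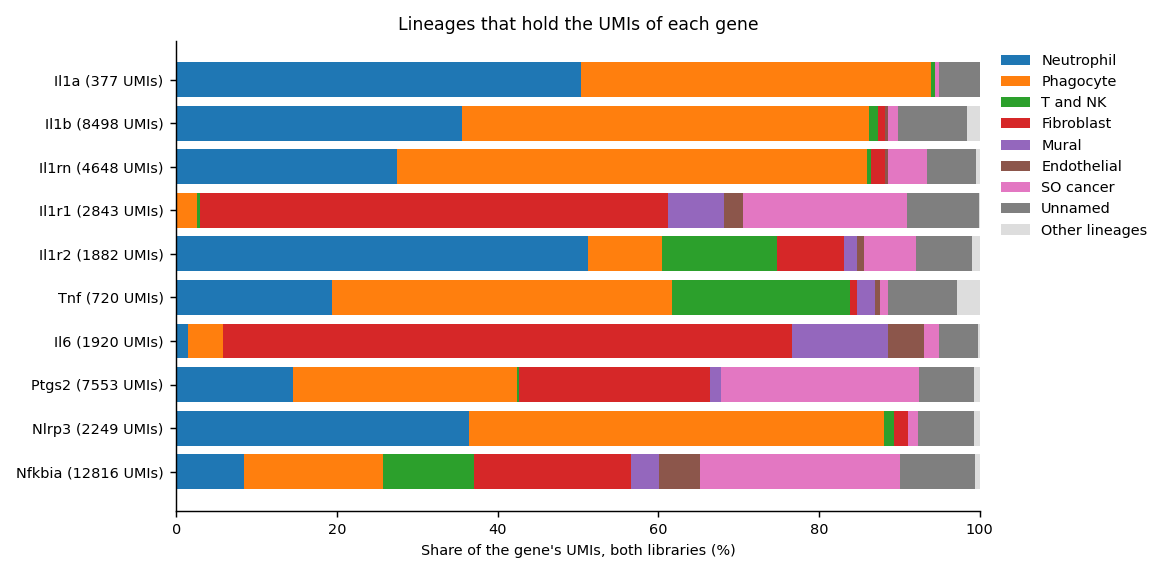
Horizontal bars divide the UMIs of each of the 10 genes, summed over both libraries, among the lineages (x axis, percent of the gene's UMIs, with the number of UMIs beside each name). Ligands, antagonist and Nlrp3 are mostly neutrophil and phagocyte, Il1r1 and Il6 mostly fibroblast, while Ptgs2 and Nfkbia are divided among many lineages.

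By level, neutrophil-like cells stood above all other lineages for Il1b in both libraries. Il1b reached 5501 CPM (5089 to 5938) in WT and 3563 CPM (3420 to 3709) in TSK neutrophils, against 596 CPM (573 to 620) and 535 CPM (511 to 560) in phagocytes. Lineages that should lack the gene set the background, which was 21.2 and 22.3 CPM in T and NK cells and 22.4 CPM in WT endothelial cells. It was uneven, as 58 of the 76 UMIs in WT T and NK cells lay in the 70 cells above 10000 UMIs (60.4 CPM). The other 417 were at 6.84 CPM, and TSK T and NK cells of at most 10000 UMIs at 22.6 CPM. An Il1b UMI was seen in 78.9% of WT and 86.0% of TSK neutrophils, in 64.5% and 45.1% of phagocytes and in 1.85% and 2.80% of T and NK cells. These cells differ in depth, with medians of 3392.5 and 2021 UMIs in neutrophils, 9687 and 6260 in phagocytes and 6786 and 2818.5 in T and NK cells. After thinning of each cell to 500 UMIs these became 55.3% and 65.9%, 23.4% and 19.7%, and 0.411% and 0.311%, so the order of the lineages was the same. Levels in fibroblasts (11.7 and 10.8 CPM) and SO cancer cells (12.6 and 2.23 CPM) were at or below the background of whole lineages, though not all below 6.84 CPM. They are not read as expression.

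Il1a, the ligand that acts without cleavage, had the same order at lower counts, with 543 CPM in WT and 189 CPM in TSK neutrophils and 18.4 and 25.6 CPM in phagocytes. No Il1a UMI was seen in fibroblasts of either library, which allows up to 0.898 CPM in WT and 0.979 CPM in TSK. Il1rn stood at 2329 and 1504 CPM in neutrophils and at 366 and 351 CPM in phagocytes. Il1r2 was at 1862 and 1118 CPM in neutrophils, at 24.7 and 20.6 CPM in phagocytes, and at 49.0 and 96.4 CPM in T and NK cells. Il1r1 had 0 UMIs in WT and 2 UMIs in TSK neutrophils, so these cells carried the decoy and not, at this depth, the signaling receptor.

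The balance of antagonist and ligand, taken over whole lineages, was higher in phagocytes than in neutrophils in both libraries. Neutrophils held 0.423 UMIs of Il1rn per Il1b UMI in WT (0.367 to 0.488) and 0.422 in TSK (0.392 to 0.455). In phagocytes the ratio was 0.614 in WT (0.575 to 0.654) and 0.656 in TSK (0.609 to 0.706), with intervals that overlap each other but not those of neutrophils. Phagocytes low in C1q genes, which are described further on, departed from this in TSK, with 0.520 (0.475 to 0.570) in WT and 0.268 (0.231 to 0.309) in TSK, and those high in C1q had 0.731 and 1.03. The decoy was more uneven, at 0.338 and 0.314 UMIs of Il1r2 per Il1b UMI in neutrophils and 0.0414 and 0.0385 in phagocytes. Such ratios set 2 genes with unlike capture side by side and are compared between cells only.

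Fibroblast-like cells had the highest Il1r1 level, 279 CPM (261 to 297) in WT and 237 CPM (220 to 255) in TSK. Mural cells came next with 161 and 96.3 CPM, and then endothelial cells with 46.6 and 22.7 CPM, SO cancer cells with 34.1 and 16.1 CPM and phagocytes with 8.14 and 10.6 CPM. Endothelial and SO cancer cells did not differ beyond their intervals in either library. Il6, a cytokine made by stroma in response to IL-1 and TNF, was at 130 CPM in WT and 302 CPM in TSK fibroblasts, at 195 and 105 CPM in mural cells and at 53.5 and 42.1 CPM in endothelial cells. It was near 0 in T and NK cells, with 1 UMI in WT and none in TSK, and its 225 CPM in WT neutrophils came from 2 cells. The order of fibroblasts and mural cells for Il6 was thus opposite in the 2 libraries, as the plot of levels by lineage shows.

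**Figure D2:**
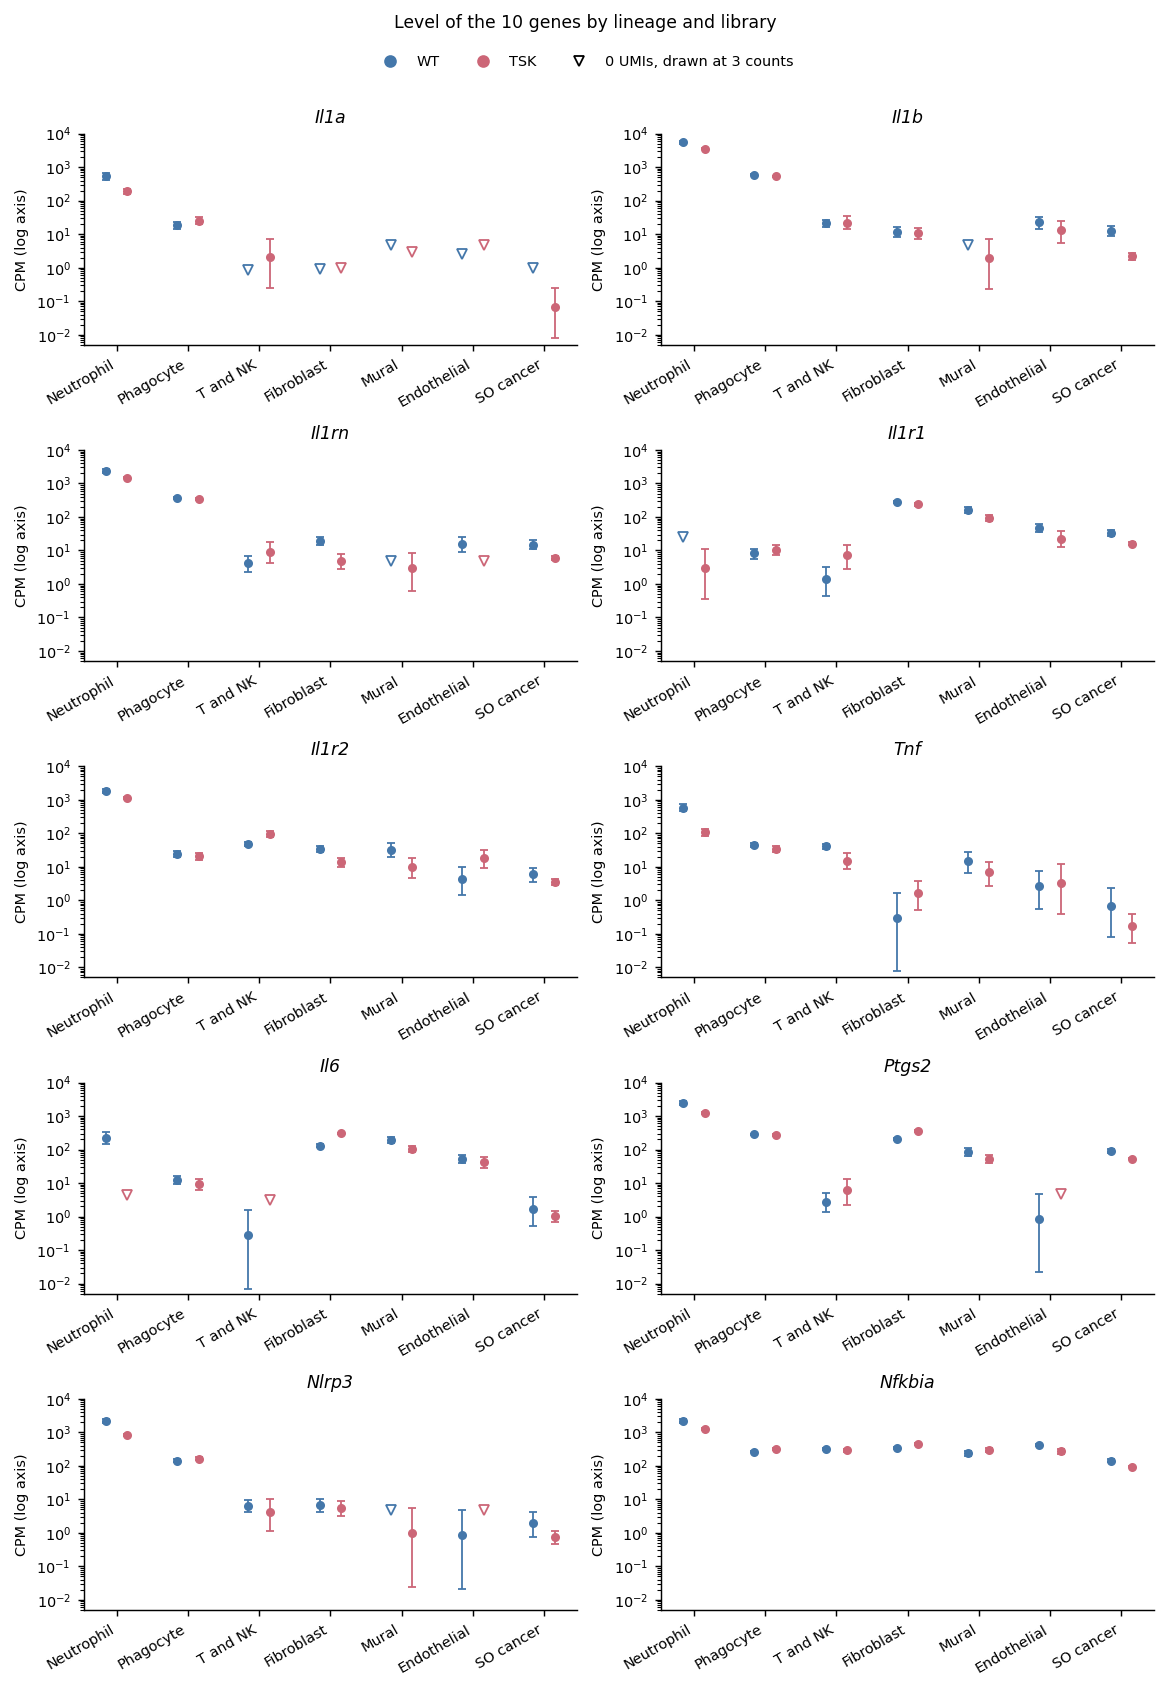
Each panel gives the level of 1 gene (y axis, CPM, log axis) in the 7 lineages, blue for WT and red for TSK, with exact 95% Poisson intervals as bars. An open triangle marks 0 UMIs and is drawn at the level of 3 counts. Neutrophils are highest for Il1a, Il1b, Il1rn, Il1r2, Tnf, Ptgs2, Nlrp3 and Nfkbia, fibroblasts and mural cells for Il1r1, and Il6 differs in order between the libraries.

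A large part of the UMIs of several of these genes lay in few cells. The shares are of raw UMIs, so deeper cells weigh more, and other genes were not set beside them. In the WT neutrophils 4 of 38 cells carried 50.7% of the Il1b UMIs and 87.7% of the Il1a UMIs, and in TSK 22 of 214 cells carried 37.8% and 64.0%. Among phagocytes, the 10% of cells with most Il1b held 49.0% of it in WT and 62.8% in TSK. In fibroblasts the top 10% held 65.3% of the Il6 in WT and 54.2% in TSK. For Nfkbia in fibroblasts the shares were smaller, at 33.6% in WT and 33.5% in TSK.

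The genes also met in the same cells. Of phagocytes with an Il1b UMI, 62.8% (56.3 to 69.0) in WT and 63.3% (56.4 to 69.7) in TSK had an Nlrp3 UMI, against 39.5% and 37.4% of phagocytes without Il1b. The median depths of phagocytes with and without Il1b were 10085 and 8195 UMIs in WT and 6122 and 6373.5 in TSK, so in TSK the cells with Il1b were not the deeper ones. Tnf did not follow Il1b there, being detected in 12.1% of TSK phagocytes with Il1b and 15.6% of those without. In fibroblasts, Ptgs2 was seen in 66.2% (WT) and 65.1% (TSK) of cells with an Il6 UMI and in 36.9% and 34.6% of those without, but the cells with Il6 were deeper, with medians of 26576 and 12008 against 14701 and 7215 UMIs.

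Between the libraries, differences are given as the log2 of the TSK level over the WT level, and a gene is called past 2-fold when this is at least 1 or at most -1, among genes with at least 20 UMIs over both libraries in a lineage. The median over all such genes lay above 0 in every lineage, between 0.12 in SO cancer cells and 0.47 in neutrophils, and the values below are read beside it.

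In neutrophil-like cells 5 of the 9 members with enough UMIs were past 2-fold lower in TSK and none higher, where the background over 4476 genes was 12.2% lower and 38.2% higher. Tnf was at 576 CPM in WT and 107 CPM in TSK (log2 -2.43, -2.93 to -1.93), Il1a at -1.53 (-1.97 to -1.07), Nlrp3 at -1.39 (-1.61 to -1.18) and Ptgs2 at -1.03 (-1.22 to -0.83). The other of the 5 was Il6, with 27 UMIs in WT, of which 19 lay in 1 cell, and 0 UMIs in the 214 TSK cells, which allows up to 4.52 CPM. Il1b was at -0.63 (-0.75 to -0.50), Il1rn at -0.63, Il1r2 at -0.74 and Nfkbia at -0.84.

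These neutrophil values rest to a large extent on 9 TSK cells. The 9 had between 10095 and 55806 UMIs, were 4.21% of the TSK neutrophils and held 34.8% of their UMIs, while no WT neutrophil was above 7308 UMIs. Il1b was at 677 CPM in these 9 cells and at 5100 CPM (4890 to 5318) in the other 205 TSK neutrophils. Neutrophil markers stood at 12968 CPM in the 9 cells and at 64657 CPM in the other 205, and SO cancer markers at 1210 and 171 CPM (8.35 CPM in WT). Whether the 9 are pairs of cells was not tested.

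Among neutrophils with at most 10000 UMIs Il1b was close in the 2 libraries, with log2 -0.11 (-0.24 to 0.02), and so was Il1rn, with -0.14 (-0.33 to 0.06). Here 3 members were past 2-fold lower and none higher, beside 11.4% of 2957 genes lower and 20.1% higher, and the median of all genes was 0.02. They were Tnf, at 576 CPM in WT and 153 CPM in TSK (log2 -1.92, -2.43 to -1.41), Il1a, at 543 and 259 CPM (-1.07, -1.52 to -0.60), and Il6. Nlrp3 was at -0.90 (-1.12 to -0.68), Ptgs2 at -0.58 (-0.78 to -0.38) and Nfkbia at -0.38 (-0.58 to -0.17). Cell by cell, Il1b was not lower in TSK, as the median neutrophil had 2383 CPM of Il1b in WT and 3358 CPM in TSK, with quartiles of 469 and 5487 CPM and of 1104 and 7290 CPM. WT neutrophils were few, and 34 of their 65 Il1a UMIs came from 1 cell. Their summed marker level was 30769 CPM, and 7 of the 38 fell in a cluster of 46 small cells found in the WT library only, with a median of 691 UMIs.

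**Figure D3:**
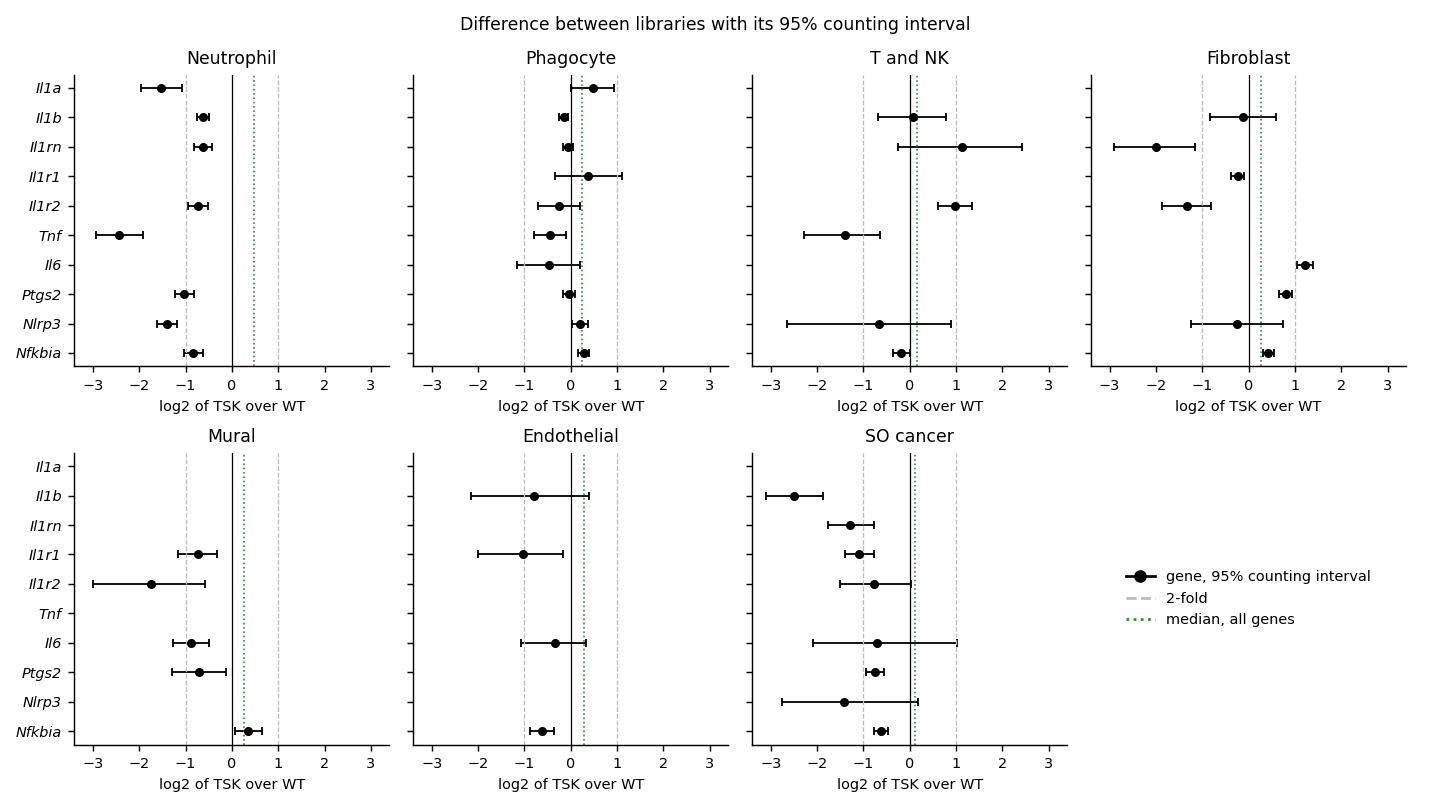
Each panel shows 1 lineage, with the log2 of the TSK over the WT level on the x axis (points, bars are exact 95% counting intervals) for each gene with at least 20 UMIs in that lineage and at least 1 in each library. Dashed lines mark 2-fold and the dotted line the median over all genes. Neutrophil points lie left of 0 (9 deep TSK cells included), phagocyte points lie near 0, and in fibroblasts Il6, Ptgs2 and Nfkbia lie right of 0.

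In mononuclear phagocyte-like cells, taken as a whole, none of the 10 members was past 2-fold, beside 9.22% of 10591 genes higher and 3.36% lower in TSK. Il1b was at log2 -0.16 (-0.25 to -0.07), Il1rn at -0.06 (-0.17 to 0.05) and Ptgs2 at -0.04 (-0.16 to 0.09). Tnf was lower in TSK, from 45.5 to 33.6 CPM (-0.44, -0.79 to -0.10), and Nfkbia higher, from 266 to 323 CPM (0.28, 0.16 to 0.40), the latter near the median of all genes in this lineage (0.23).

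Divided by their C1q genes, which mark macrophages and are low in monocytes, the phagocytes gave 2 opposite differences in Il1b. Cells with fewer than 5 C1q UMIs per 10000 were 49.3% of WT phagocytes (179 cells) and 25.6% of TSK phagocytes (122 cells). In these C1q-low cells Il1b was at 861 CPM in WT and at 1562 CPM in TSK, a log2 of 0.86 (0.74 to 0.98). In the C1q-high cells it was at 431 and 327 CPM, a log2 of -0.40 (-0.53 to -0.27). The C1q-high cells were not uniform. Those with at least 10 Arg1 UMIs per 10000, Arg1 being an arginase of macrophages, were at 655 and 489 CPM (80 and 159 cells, -0.42, -0.58 to -0.27), and those with fewer were higher in TSK, at 321 and 457 CPM (77 and 94 cells, 0.51, 0.24 to 0.77). Phagocytes with at least 3 UMIs of resident macrophage markers, which stand outside both Arg1 groups, had little Il1b, at 103 and 61.2 CPM (-0.75, -1.27 to -0.23), and were 7.99% of WT and 21.4% of TSK phagocytes. The makeup of the lineage thus differed between the libraries beside the levels within its groups. With the line drawn at 3 C1q UMIs per cell, the values were 0.82 (0.70 to 0.95) and -0.42 (-0.54 to -0.29).

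C1q-low phagocytes of TSK were also higher in Ptgs2 (246 and 399 CPM, log2 0.69), Nlrp3 (126 and 210 CPM, 0.73) and Nfkbia (266 and 408 CPM, 0.62). Il1rn was not, at 448 and 418 CPM (-0.10, -0.32 to 0.11), and Tnf went the other way, with 65 UMIs (40.5 CPM) in WT and 7 UMIs (12.2 CPM) in TSK (-1.72, -3.09 to -0.60). In C1q-high cells Nlrp3 was at 155 and 156 CPM, Tnf at 48.7 and 37.9 CPM (-0.36, -0.75 to 0.02) and Ptgs2 at 305 and 250 CPM. The equal Nlrp3 levels covered opposite differences. Nlrp3 was lower in TSK in the Arg1-high group, at 215 and 168 CPM (-0.35), and higher in the Arg1-low group, at 114 and 168 CPM (0.56). Phagocytes with resident macrophage markers were also higher in Nlrp3, at 79.2 and 135 CPM (0.77). Each of these intervals left out 0. The same pair of clusters held most phagocytes in both libraries, with 45.7% of WT cells in each and 47.6% and 35.2% of TSK cells. Clusters were not drawn by C1q alone, and over all their cells the Il1b values were smaller in size. The Ptgs2 values of both clusters were above 0 with intervals that included 0, unlike the lower Ptgs2 of C1q-high cells. In the first (176 WT and 240 TSK cells) Il1b was at -0.14 (-0.24 to -0.03), Ptgs2 at 0.10 (-0.03 to 0.24) and Il1rn at -0.16 (-0.28 to -0.03). In the second (211 and 237 cells) Il1b was at 0.46 (0.33 to 0.59), Ptgs2 at 0.11 (-0.16 to 0.38), Il1rn at 0.38 (0.13 to 0.61) and Nlrp3 at 0.60 (0.25 to 0.94).

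**Figure D4:**
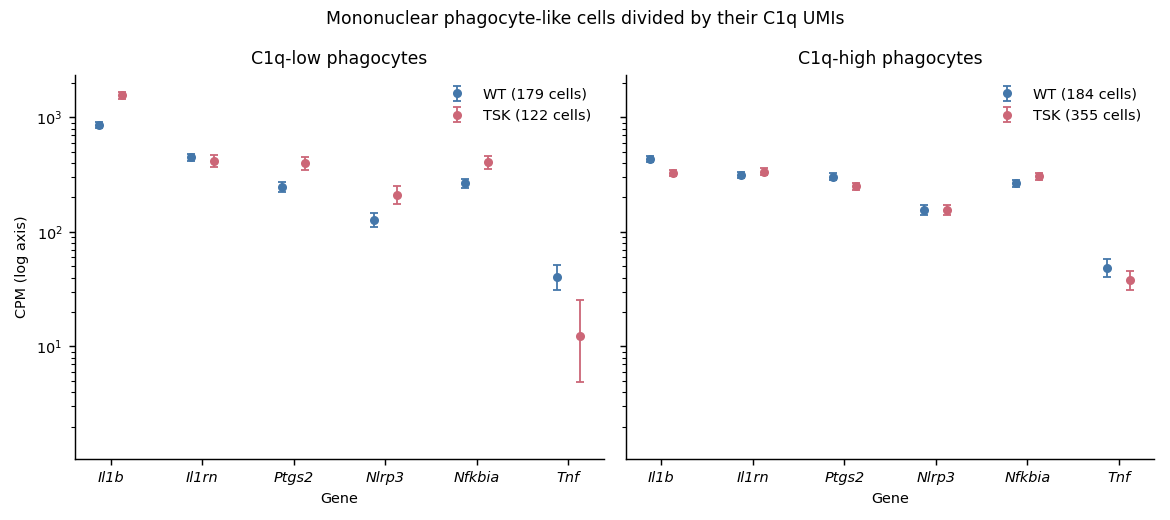
Levels of 6 genes (y axis, CPM, log axis) in phagocytes with low (left) and high (right) C1q, blue for WT and red for TSK, bars being exact 95% Poisson intervals. Il1b, Ptgs2, Nlrp3 and Nfkbia are higher in TSK among the C1q-low cells, and Il1b and Ptgs2 lower among the C1q-high cells. Tnf is lower in TSK among the C1q-low cells. For the C1q-high cells the interval of its log2 ratio, which is not drawn, includes 0.

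Fibroblast-like cells had higher levels of the target genes Il6, Ptgs2 and Nfkbia in TSK. Il6 was at 130 CPM (118 to 143) in WT and 302 CPM (283 to 322) in TSK, a log2 of 1.21 (1.05 to 1.38). Ptgs2 was at 207 and 360 CPM (0.80, 0.66 to 0.94) and Nfkbia at 337 and 453 CPM (0.43, 0.31 to 0.54), beside a median of 0.28 over all genes. The receptor Il1r1 was slightly lower, at -0.23 (-0.38 to -0.09). Il6 was past 2-fold higher and 2 members, Il1r2 (-1.33) and Il1rn (-1.99), past 2-fold lower, beside 10.4% of 11269 genes higher and 3.74% lower. Of the 65 Il1rn UMIs in WT fibroblasts 28 lay in 1 cell.

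The share of fibroblasts with an Il6 UMI was 45.8% in WT and 49.2% in TSK, although TSK fibroblasts were shallower, with a median of 10534 UMIs against 21886. At 500 UMIs drawn from each cell, 7.1% and 9.92% had one. Single cells did not decide the value, since the cell with most Il6 held 17.7% of it in WT and 5.08% in TSK. Fibroblasts with at least 2 UMIs of Clec3b, Pi16 or Cd34, genes of adventitial fibroblasts, were 120 WT and 183 TSK cells and showed Il6 at 147 and 382 CPM (1.38, 1.21 to 1.55). The others, 35 and 79 cells, showed it at 14.3 and 93.0 CPM (2.70, 1.51 to 4.19) on 6 WT and 79 TSK UMIs. Their Ptgs2 was at 98.0 and 439 CPM (2.16, 1.70 to 2.67). Il6 was thus higher in TSK in both groups of fibroblasts. The groups are divided by a count of UMIs and not by a rate, so the depth of a cell affects its group. Genes of dissociation and stress, a list of 19 that includes Fos, Jun and heat shock genes, were also higher in TSK fibroblasts, with 9359 CPM in WT and 11234 CPM in TSK, and their part in these values was not tested.

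Mural-like cells, the contractile cells of vessel walls, gave values opposite to those of fibroblasts for Il6 and Ptgs2, on fewer cells. Il1r1 was lower and Nfkbia higher in TSK, as in fibroblasts. Il6 was at 195 CPM in WT and 105 CPM in TSK (log2 -0.89, -1.28 to -0.50), Ptgs2 at 84.5 and 51.6 CPM (-0.71, -1.29 to -0.13) and Il1r1 at 161 and 96.3 CPM (-0.74, -1.16 to -0.32). Nfkbia was at 234 and 298 CPM (0.35, 0.06 to 0.64). One member of 5, Il1r2 with 20 and 10 UMIs, was past 2-fold lower, beside 7.85% of 8053 genes lower and 16.2% higher. Without the cell richest in Ptgs2 in each library the log2 of Ptgs2 was -0.071. There were 23 WT mural cells, of which 1 held 27.5% of the Il6 UMIs and 1 held 46.2% of the Ptgs2 UMIs. These cells were taken from those named fibroblasts by their mural markers, and their fibroblast markers stood at 19279 CPM in WT and 11242 CPM in TSK (9 of 9 detected in both), above their mural markers at 2529 and 1971 CPM (8 of 8). SO cancer markers in them were at 73.1 CPM in WT (4 of 7 detected) and 570 CPM in TSK (6 of 7), and the part of these shifts was not tested. The list of dissociation and stress genes was at 7234 CPM in WT and 7086 CPM in TSK.

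T and NK cell-like cells showed a difference in Tnf, which activated T cells secrete. It was at 40.4 CPM (34.1 to 47.5) in 487 WT cells and 15.2 CPM (8.52 to 25.1) in 322 TSK cells, a log2 of -1.41 (-2.28 to -0.64), with 145 and 15 UMIs. A Tnf UMI was seen in 19.5% of WT and 4.35% of TSK cells at medians of 6786 and 2818.5 UMIs, and thinned to 500 UMIs in 2.05% and 1.55%, so the shares at full depth are not compared. Tnf was the member past 2-fold lower and Il1rn, with 15 and 9 UMIs, the one past 2-fold higher (1.13, -0.24 to 2.42), of 6 members, beside 3.54% of 9136 genes lower and 5.86% higher. Nfkbia was at -0.18 (-0.37 to 0.01).

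Il1r2 in lymphocytes was at 49.0 CPM in WT and 96.4 CPM in TSK (0.98, 0.60 to 1.35). In TSK 24 of the 95 UMIs lay in 1 cell above 10000 UMIs, and in WT 121 of the 176 lay in 70 such cells. Lymphocytes of at most 10000 UMIs were at 20.9 CPM in WT and 72.9 CPM in TSK. Cells with a Cd4 UMI and none of Foxp3, Cd8a or Cd8b1 held 48.9% of all Il1r2 UMIs of lymphocytes in WT and 52.6% in TSK, at 206 CPM in 55 WT cells and 689 CPM in 22 TSK cells (1.74, 1.21 to 2.26). Cells with a Cd8a or Cd8b1 UMI were also higher in TSK, at 10.8 CPM in 328 WT cells and 64.3 CPM in 185 TSK cells (2.58, 1.83 to 3.35), and held 14.8% and 42.1% of the UMIs. Lymphocytes with none of these markers went the other way, with 44 UMIs in WT, of which 24 lay in 1 cell, and 3 in TSK (67.2 and 11.8 CPM). In cells with a Foxp3 UMI there were 20 and 2 UMIs (193 and 54.1 CPM, -1.84, -4.98 to 0.21). The TSK cell with 24 UMIs was in the Cd4 or the Cd8 group, since the other groups held fewer. The TSK level of that group rests on it to a large extent. All Il1r2 counts of lymphocytes come from few cells, 35 in WT and 30 in TSK.

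SO cancer-like cells, taken as a whole, were lower in TSK for the members they express. Ptgs2 was at 89.9 CPM in WT and 53.5 CPM in TSK (log2 -0.75, -0.94 to -0.56), Nfkbia at 143 and 93.0 CPM (-0.62, -0.77 to -0.47) and Il1r1 at 34.1 and 16.1 CPM (-1.08, -1.39 to -0.76). Cells high in Mki67 or Top2a, genes of the cell cycle, had Ptgs2 at 36.3 and 41.5 CPM (0.20, -0.24 to 0.66) and Nfkbia at 169 and 85.0 CPM (-0.99, -1.20 to -0.78). The other cancer cells had Ptgs2 at 127 and 99.7 CPM (-0.35, -0.58 to -0.13) and Nfkbia at 125 and 124 CPM (-0.01, -0.23 to 0.21). Il1r1 was lower in both groups (-0.87 and -0.92). Over the whole lineage 4 of 8 members were past 2-fold lower, beside 10.2% of 14525 genes lower and 11.2% higher. Of these 4, Il1b, Il1rn and Nlrp3 were at 14.9 CPM or less in both libraries. The lineage had a different makeup in the 2 libraries. A cluster high in Ptgs2 held 56.8% of the WT and 33.3% of the TSK cancer cells, 30.7% of the WT cells lay in a cluster of mostly unnamed cells, and a further 25.2% and 23.8% of the TSK cells lay in 2 clusters that held few WT cells. Over all cells of the first cluster (59 WT and 394 TSK cells) Ptgs2 was at 104 and 110 CPM (0.08, -0.11 to 0.27), Nfkbia at 158 and 132 CPM (-0.27, -0.42 to -0.11) and Il1r1 at 38.9 and 20.8 CPM (-0.91, -1.24 to -0.56). Within it Ptgs2 was no longer lower in TSK, while Il1r1 still was. The dissociation list went the other way from these members in the SO cancer cells, at 4775 CPM in WT and 7668 CPM in TSK, and its part was not tested.

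Endothelial-like cells were also lower in TSK for Nfkbia, at 416 and 271 CPM (-0.62, -0.88 to -0.36), and for Il1r1, at 46.6 and 22.7 CPM (-1.04) on 54 and 14 UMIs. Among endothelial cells of at most 10000 UMIs Il1r1 was at 43.5 and 43.2 CPM on 7 UMIs each, and Nfkbia was not lower (0.021). Of 4 members Il1r1 was past 2-fold, beside 7.45% of 7871 genes lower and 15.6% higher. The dissociation list was lower in TSK as well, at 9073 CPM in WT and 6422 CPM in TSK, and its part was not tested.

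The other genes of these pathways, 74 in a list of ligands, receptors, adaptors, NF-κB subunits, prostaglandin enzymes and response genes, were counted in the same way. In phagocytes 1 of the 68 with enough UMIs was past 2-fold higher, Hpgds, a prostaglandin D synthase (17.0 and 51.8 CPM, log2 1.61), and none lower, beside 9.22% and 3.36% of all genes, with a median of -0.01 beside 0.23. In neutrophils 3 of 52 were higher and 12 lower, beside 38.2% and 12.2%, with a median of -0.40 beside 0.47. Among those lower were Zfp36, which degrades AU-rich transcripts (1853 and 576 CPM, -1.69), Nfkbie, an NF-κB inhibitor (-1.37), and Icam1, an adhesion receptor (-1.28), while Saa3, an acute phase protein, was at 8.35 and 1069 CPM (with 1 UMI in WT) and Ptges3, a prostaglandin E synthase, at 33.4 and 164 CPM (2.30). The 9 deep cells held 704 of the 709 TSK UMIs of Saa3 and 78 of the 109 of Ptges3. In the neutrophils of at most 10000 UMIs 4 of 44 were higher and 2 lower, beside 20.1% and 11.4% of all genes. Zfp36 was at 1853 and 763 CPM there (-1.28, -1.53 to -1.03), while Nfkbie (-0.92, -1.72 to -0.09) and Icam1 (-0.74, -1.45 to 0.00) were no longer past 2-fold, Saa3 had 1 and 5 UMIs, and Ptges3 was at 33.4 and 71.7 CPM (1.10, -0.40 to 3.07). Zfp36 is also in the dissociation list, whose sum was 17154 CPM in WT and 11571 CPM in TSK neutrophils. In fibroblasts 1 of 62 was higher, the response gene Ier3 (216 and 467 CPM, 1.11), and 5 lower, among them Saa3 (1070 and 425 CPM, -1.33), both chosen after their values were seen, beside 10.4% and 3.74% of all genes. More of the list was lower in the other non-immune lineages, with 14 of 50 (28.0%) in endothelial cells beside 7.45% of all genes, 14 of 52 (26.9%) in mural cells beside 7.85% and 16 of 66 (24.2%) in SO cancer cells beside 10.2%, while 2, 4 and 1 were higher, beside 15.6%, 16.2% and 11.2%. Its medians there were -0.55, -0.38 and -0.35, where those of all genes were 0.29, 0.26 and 0.12. In T and NK cells 3 of 55 were higher and 1 lower, beside 5.86% and 3.54%.

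Across the 15 sums of a lineage in a library with at least 20 cells, the genes nearest to each member were named by Pearson's r of log2(CPM + 1), as a description over sums that share 2 libraries. For Il1b they were C9orf72 (0.97), the chemokine receptor Ccr1 (0.97) and the pattern receptor Clec4e (0.96), and for Il1a Treml4, P2ry13 and Clec4d (0.99 each). Nlrp3 was nearest to the cytokine Osm (0.99) and Il1rn to Alox5ap, Ptafr and Fcgr3 (0.97 each). Ptgs2 was nearest to the transcription factor Cebpb (0.93), Basp1 and Sod2, Il6 to Slc2a10 (0.93), Pard3b and Fzd4, and Il1r1 to Fkbp7 (0.97), Laptm4a and Htra1. Nfkbia was nearest to Tgoln1 (0.97), Plk3 and Nfkbiz, Tnf to Sik3 (0.97), Cap1 and Snx20, and Il1r2 to Stx11 (0.95), Ddx60 and Gm43672.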

How the data were processed

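Single-cell RNA sequencing counts were analysed for 1 WT and 1 TSK library. Per the labels and file headers the authors deposited raw UMI counts per gene and barcode from Cell Ranger (7.1.0 in the matrix header, 7.1.1 in the submitters' processing notes; build mm10) with no normalization, so genes of many transcripts take a larger share of each cell's total. GENCODE M21 (GRCm38), in which 99.6% of the 32285 identifiers were found, gave the 3′ untranslated regions and gene positions, and promoters are from RefSeq (GRCm38.p6). The 10 genes and all lists were chosen with earlier results of these data known.

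Cells were filtered as stated with the results. Unlike the study's filter, cells above 10000 UMIs were kept, and that limit was run as an alternative. No doublet caller was run. A cell was named when it had at least 3 UMIs from at least 2 markers of a lineage and at least 2 times those of the next (T and NK lists joined). Fibroblast-named cells with at least 5 UMIs from at least 3 mural markers were called mural-like, a rule set after the clusters were seen. So were the divisions by C1q, Arg1, resident markers, Cd4, Foxp3, Cd8, the adventitial genes and Mki67 or Top2a. Cells of mixed markers stayed unnamed.

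UMIs were summed per lineage and library and divided by all UMIs (CPM). Poisson, binomial and conditional binomial intervals are exact at 95%, and 3 counts served as the limit for a level of 0. With 1 library per genotype no model or p-value was used. The interval code was tested on simulated data. Clusters (Leiden, resolution 1, 30 components, 20 neighbours, 2000 variable genes, without the 10 genes), each named for its most common lineage, served as an alternative. The named genes are the members in each lineage of at least 50 cells, the 3 genes most similar to each, and up to 3 genes per direction with at least 50 UMIs past 2-fold of the pathway list. Alternatives concerned the UMI limit, 20% mitochondrial UMIs, shared barcodes, naming (6 UMIs, 3 markers, 4 times; or clusters), the weight of cells, scaling and the minimum UMIs. The tools were scipy 1.17.1 and numpy 2.4.6 under Python 3.11.15, scikit-learn 1.9.0, leidenalg 0.10.2 on igraph 0.11.9, pandas 2.3.3 and matplotlib 3.10.9.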

Additional observations from a re-analysis of the deposited data

Results flagged for a closer look

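Several members differed between WT and TSK in opposite directions in different lineages, with intervals on opposite sides of 0. The difference between lineages was not tested, as there is 1 library per genotype. Il6 was higher in TSK fibroblasts (log2 1.21) and lower in mural cells (-0.89). Ptgs2 was higher in fibroblasts (0.80) and lower in mural cells (-0.71), SO cancer cells (-0.75) and neutrophils (-1.03). Its mural value was -0.071 without the cell richest in Ptgs2 in each library, and its SO cancer value 1.68 with at most 10000 UMIs per cell. Nfkbia was higher in phagocytes (0.28), fibroblasts (0.43) and mural cells (0.35) and lower in neutrophils (-0.84), endothelial cells (-0.62) and SO cancer cells (-0.62). Il1r2 was higher in T and NK cells (0.98) and lower in neutrophils (-0.74), fibroblasts (-1.33) and mural cells (-1.74). Il1a (0.47 in phagocytes, -1.53 in neutrophils) and Nlrp3 (0.20 and -1.39) parted in the same way, and the neutrophil values include the 9 deep TSK cells described with the results.

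Within phagocytes Il1b was higher in TSK among C1q-low cells (0.86) and lower among C1q-high cells (-0.40), though higher among the C1q-high cells low in the arginase Arg1 (0.51), likewise untested.

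A cluster of 46 cells found in the WT library only, with a median of 691 UMIs, was in no comparison for the most part, since 39 of its cells stayed unnamed. It held Il1rn at 1206 CPM (44 UMIs) and Il1b at 603 CPM (22 UMIs), above the level in T and NK cells.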

How the results depend on the processing

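The Il1b difference between the libraries changed direction with the processing, and beyond which cells a setting takes in, the cause was not tested. In neutrophils (log2 -0.63) it was -0.11 with at most 10000 UMIs per cell, 0.049 with lineages taken from clusters, which counts the cluster found in the WT library only as neutrophil-like, -0.28 from clusters without it, 0.048 with equal weight for each cell, -0.49 without the cell richest in the gene in each library and -0.35 with that cluster added to the cells named by markers. The settings on this cluster and on the richest cell were chosen after seeing the data. In phagocytes (-0.16) it was 0.075 with equal weight for each cell and -0.38 when the median gene ratio set the scale. Neutrophil members past 2-fold were 5, and 3 with at most 10000 UMIs, 3 under stricter naming, 2 from clusters (3 without the WT-only cluster), 2 with equal cell weight and 2 without the richest cell. The phagocyte count of 0 became 1 with equal cell weight (Il6, lower in TSK). The share of Il1b UMIs in neutrophils and phagocytes (86.2%) was 89.8% with at most 10000 UMIs, 77.4% under stricter naming and 96.1% from clusters (95.8% without the WT-only cluster).

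Of the other 47 ratios 31 had intervals that left out 0, and 6 of these changed sign under some setting. With at most 10000 UMIs Nfkbia in endothelial cells was 0.021, Il1r1 in mural cells 1.16 and Ptgs2 in SO cancer cells 1.68. Il1b in SO cancer cells was 1.44 under stricter naming, Il1r2 in neutrophils 0.075 with equal cell weight and Nlrp3 in phagocytes -0.021 with scaling by the median. Tnf stayed between -2.46 and -1.60 in neutrophils and between -1.63 and -1.29 in T and NK cells, and Il6 in fibroblasts between 0.94 and 2.08. Il1r1 in endothelial cells (-1.04) was -0.0090 with at most 10000 UMIs. Alternatives that left a library at 0 UMIs gave no ratio. No paired analysis was possible because each genotype has 1 library, and none could be left out.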
